A study of Mus musculus with 18 samples.

Results

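The genes described here are those of the ubiquitin-conjugating (E2) family in mouse spermatogenic cells, taken as every protein-coding gene of the mm9 annotation (GENCODE vM1) whose symbol starts with *Ube2*. The rule gave 36 of 22380 annotated protein-coding genes. Of these, 34 reached an FPKM (fragments per kilobase of transcript, scaled to the total of mapped fragments) of at least 1 in at least 3 of the 18 libraries and were among the 14564 genes tested, whereas *Ube2nl* and *Ube2ql1* were listed at 0 in every library. The study sorted pachytene spermatocytes and round and elongating spermatids out of the testes of adult wild-type C57BL/6 mice and separated their cytoplasm on sucrose gradients. It then sequenced large RNA from the polysome fractions, which hold mRNA loaded with several ribosomes, and from the light ribonucleoprotein (RNP) fractions, which hold mRNA without ribosomes. Each of the 6 combinations (polysome and RNP libraries of each cell type) has 3 libraries, and no treatment or mutation separates them. Cycloheximide, which stalls ribosomes, was present in the purification and gradient buffers of all groups, testes of several animals were pooled for each purification, and cells were sorted by sedimentation and judged by morphology, so that each group is enriched for 1 cell type and not pure. By the study's own estimate, purity was clearly lowest in elongating spermatids. The sources do not say that replicates came from separate purifications, and p-values therefore measure only the spread between these libraries, which may be technical.

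Ubiquitin reaches its targets through a relay of 3 enzyme classes. An E1 enzyme activates ubiquitin, an E2 enzyme takes it over on a cysteine, and an E3 ligase brings the loaded E2 to the substrate. The E2 enzyme largely sets which kind of ubiquitin chain is built, and some E2 enzymes carry the ubiquitin-like proteins SUMO, NEDD8 or ISG15 in place of ubiquitin. In the testis, ubiquitin is known for its part in histone replacement and in the removal of cytoplasm and organelles while spermatids elongate, and male mice that lack *Ube2b* are known to be infertile. The symbol rule also takes members that are no E2 enzymes in the strict sense. *Ube2v1* and *Ube2v2* lack the active cysteine and act as partners of *Ube2n*, and *Ube2cbp*, also known as *Ube3d*, encodes a protein that binds an E2.

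The cysteine that carries ubiquitin lies a fixed short way after a His-Pro-Asn triplet in most of the family. It was looked for in the annotated coding sequence by that triplet, and the 30 coding bases around it are given for the members on which the results below turn, with the cysteine codon in capitals (mm9, coding strand, each inside 1 coding exon). The proteins of *Ube2a* and *Ube2b* are homologues of yeast Rad6. That of *Ube2n* makes chains used in signalling and DNA repair, that of *Ube2k* makes chains that send proteins to the proteasome, *Ube2t* serves the Fanconi anaemia pathway, *Ube2s* extends chains for the anaphase-promoting complex and *Ube2l6* carries ISG15.
Ube2a, chrX:34422602-34422631, plus strand: gatggtagtataTGTctggatatacttcag
Ube2b, chr11:51802165-51802194, minus strand: gatggtagcataTGTttagatatcctgcag
Ube2n, chr10:95004055-95004084, plus strand: ttgggaagaataTGTttagatattttgaaa
Ube2nl, chr7:68694312-68694341, minus strand: ttgggaagaataTGTttagatattttgaaa
Ube2k, chr5:65972670-65972699, plus strand: acaggggctattTGTttggatatcctgaaa
Ube2t, chr1:136867891-136867920, plus strand: agtggaaggattTGTctagatattctcaaa
Ube2s, chr7:4762066-4762095, minus strand: aatggcgagatcTGTgtcaatgtgctcaag
Ube2l6, chr2:84646614-84646643, plus strand: gatggtctggtgTGCctgcccctcatcagc
The window of *Ube2nl*, a gene with 1 exon, is the same as that of *Ube2n*, and over the whole coding sequence 445 of 459 bases (96.9%) are shared. *Ube2a* and *Ube2b* share 356 of 459 coding bases (77.6%). The triplet and a cysteine at this spacing were not found by the search in *Ube2j1*, *Ube2j2*, *Ube2w*, *Ube2u*, *Ube2q1* and 10 other members, *Ube2v1* and *Ube2v2* among them, and no window is given for these.

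Several values rest on pieces of a gene or on sequence shared with other genes. Of the annotated 50-base stretches, 73.6% of those of *Ube2v1* are found in other genes (*Tmem189* and 2 further gene models), 45.9% of those of *Ube2h* in *Gm2058*, 15.9% of those of *Ube2d2* in *Gm9762*, 11.7% of those of *Ube2dnl* in another gene, 4.99% of those of *Ube2g2* in its neighbour *Sumo3* and 3.03% of those of *Ube2n* in *Ube2nl*. The values of *Ube2v1* and *Ube2h* are therefore uncertain. The transcript lists were assembled for each library on its own, and a short piece with few bases can carry a high FPKM into the sum for its gene. *Ube2b* showed this most plainly. It was listed at 972 FPKM in elongating RNP replicate 2, of which 93.0% came from a 105-base piece of 2 exons, against 94.5 and 87.4 FPKM in the other libraries of that group. In round polysome replicate 1, 80.3% of the FPKM of *Ube2q1* came from a 191-base piece, and the 2 highest values of *Ube2a* in elongating polysomes came to 82.2% and 65.1% from pieces of 229 and 231 bases. The transcripts of *Ube2k*, *Ube2n* and *Ube2s*, by contrast, were assembled with annotated introns, with all of the FPKM on an annotated intron chain in 17 of 18 libraries for *Ube2k* and in all 18 for *Ube2n* and *Ube2s*.

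No read counts are held in the files, so the depth of a library could not be read from them. The study gives sequencing depth in its supplement, which was not used here. The ratio of coverage to FPKM, 1 constant per library that grows with depth and read length, ran from 1.20 to 2.26. The summed FPKM of 12 elongating spermatid markers (the protamines, transition proteins and others) was 8667 to 33858 in elongating spermatids, against 189 to 5850 in the other libraries. In polysomes, 13 pachytene markers summed to 1935 to 3266 in pachytene cells, 1010 to 1565 in round and 742 to 805 in elongating cells. In RNPs this list did not set pachytene cells apart: the sums were 678, 958 and 231 in pachytene replicates 1 to 3, 574 to 897 in round and 394 to 468 in elongating cells, so that pachytene RNP replicate 3 was the lowest of all 18 libraries. The 10 annotated round spermatid markers did not set round cells apart, with sums of 1891 to 2500 in elongating polysomes, against 168 to 2105 in round polysomes. The round libraries numbered 2 stood apart. Their sums for the round markers were 168 in polysomes and 93.1 in RNPs, against 666 to 2105 in the other round libraries. Those for the elongating markers were 251 in polysomes and 260 in RNPs, against 1742 to 5850 in the other round libraries. Their sums for 15 Sertoli cell marker entries, of which *Trf* takes 2, were 2741 and 1340, against 69.5 to 213. *Clu*, which the study describes as ubiquitous, made up 1413 FPKM of the polysome sum and 689 FPKM of the RNP sum. The Sertoli cell gene *Sox9* was at 12.7 and 6.9 FPKM in these 2 libraries and at 0 in the other 4 round libraries. Their sums for 6 spermatogonia markers were 540 in polysomes and 319 in RNPs, against 41.6 to 206 in the other round libraries. Those for the pachytene markers were 1565 and 897, also the highest of the round libraries in each fraction. Pachytene libraries also varied in the Sertoli sum, between 98.3 and 1710, whereas elongating libraries were at 42.3 to 97.7 with *Sox9*, *Gata4*, *Fshr*, *Amh* and *Rhox8* at 0 in all 6. Across all genes tested, replicates correlated with a Pearson's r of 0.481 to 0.627 for pairs with a round library numbered 2 and 0.663 to 0.892 for all other pairs, and no value above 0 was shared by 2 replicates. Comparisons of round cells are therefore also given without these 2 libraries. In bulk RNA, fewer cells of a type and less RNA per cell cannot be told apart.

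FPKM is a value per length of transcript, so levels can be set side by side between genes. *Ube2s* (chr7:4759616-4763942, minus strand) was the most abundant member with a mean of 333 FPKM over the 18 libraries, followed by *Ube2n* at 112, *Ube2b* at 108, *Ube2u* at 91.1, *Ube2m* at 84.9, *Ube2d3* at 82.0, *Ube2k* at 67.4 and *Ube2q1* at 61.5. A few high libraries set some of these places. Without elongating RNP replicate 2 the mean of *Ube2b* was 57.4, and the medians over the 18 libraries were 280 for *Ube2s*, 91.5 for *Ube2m*, 68.5 for *Ube2d3*, 62.2 for *Ube2n*, 52.6 for *Ube2u*, 52.0 for *Ube2b*, 24.8 for *Ube2q1* and 23.4 for *Ube2k*. *Ube2s* held the largest share of the summed *Ube2* FPKM in 16 of 18 libraries, between 8.26% and 32.4% in all 18. The exceptions were elongating RNP replicate 1, where *Ube2n* led with 19.3%, and elongating RNP replicate 2, where the short piece of *Ube2b* led. Next in rank, the means of *Ube2n* and *Ube2b* differed by less than their spread between libraries, and so did those of *Ube2m* and *Ube2d3*. At the other end, *Ube2d1* and *Ube2l6* averaged 0.861 and 1.57 FPKM.

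**Figure D1:**
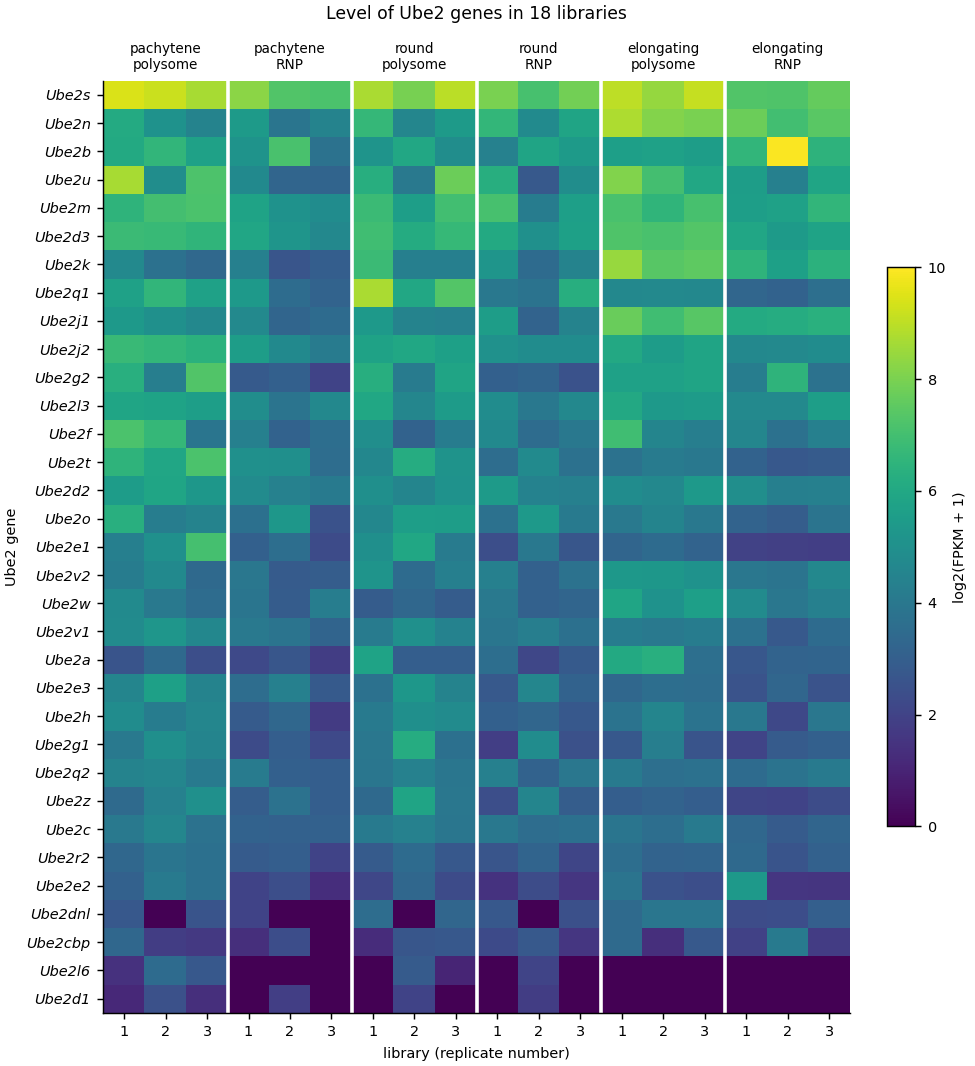
Level of the tested *Ube2* genes named here in each of the 18 libraries, as log2(FPKM + 1), with genes down the page and libraries across, grouped by cell type and fraction. Brighter cells are higher levels: *Ube2s* is bright in every column, *Ube2k*, *Ube2n* and *Ube2j1* are brightest in the elongating columns, and the 972 FPKM of *Ube2b* is the single brightest cell.

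Across the stages, the ubiquitin carriers *Ube2k* and *Ube2n* and the endoplasmic reticulum enzyme *Ube2j1* were high in elongating spermatids, whereas *Ube2t* and, at a low level, *Ube2l6* were higher in pachytene than in elongating polysomes. *Ube2k* (chr5:65928472-65990227, plus strand) had 25.5, 12.4 and 9.45 FPKM in pachytene polysomes, 111, 18.7 and 19.2 FPKM in round polysomes and 346, 167 and 181 FPKM in elongating polysomes. All elongating values lay above all others, and 1 round library stood well above its group. Its elongating minus pachytene difference in polysomes was 3.83 ± 0.68 (SE) on the log2(FPKM + 1) scale, with a limma adjusted p of 0.00828. This scale understates the change of genes with low FPKM.

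*Ube2n* (chr10:94977779-95008292, plus strand) had 68.0, 33.7 and 21.3 FPKM in pachytene polysomes, 100, 23.1 and 42.4 FPKM in round polysomes and 430, 282 and 253 FPKM in elongating polysomes. The elongating libraries again did not overlap with either earlier stage, and the elongating minus pachytene difference was 3.06 ± 0.62 (adjusted p from limma 0.0140). Its share of the summed *Ube2* FPKM was 11.9% to 14.98% in elongating polysomes, against 1.12% to 2.69% in pachytene polysomes. The 2 partners of *Ube2n* differed from each other: *Ube2v2* had 39.1, 38.4 and 33.1 FPKM in elongating polysomes, against 17.4, 25.7 and 9.79 FPKM in pachytene polysomes, without overlap but short of the test, and *Ube2v1* had 17.5, 15.4 and 17.3 FPKM against 27.1, 37.7 and 23.6 FPKM.

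*Ube2j1* (chr4:33118391-33139338, plus strand) encodes a membrane-anchored E2 of the endoplasmic reticulum that serves the degradation of misfolded proteins. It had 41.6, 31.4 and 24.5 FPKM in pachytene polysomes, 41.0, 21.1 and 20.01 FPKM in round polysomes and 209, 123 and 169 FPKM in elongating polysomes. The elongating libraries stood apart from both earlier stages, which overlapped with each other. The differences were 2.32 ± 0.55 against pachytene (limma adjusted p 0.0248) and 2.61 ± 0.55 against round spermatids (limma adjusted p 0.0422). *Ube2j2*, the other membrane-anchored member, had 65.5, 44.6 and 56.6 FPKM in elongating polysomes, against 109, 97.3 and 81.8 FPKM in pachytene polysomes, and did not pass the test.

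*Ube2t* (chr1:136859142-136870739, plus strand), the E2 of the Fanconi anaemia DNA repair pathway, had 12.8, 16.8 and 15.1 FPKM in elongating polysomes, against 89.0, 59.3 and 142 FPKM in pachytene polysomes. The groups did not overlap, and it fell by 2.54 ± 0.52 on the log2 scale (limma adjusted p 0.0151). In round polysomes it was at 23.4, 72.8 and 34.1 FPKM, highest in the replicate numbered 2. *Ube2l6*, the ISG15 carrier, was listed at 0 in all elongating libraries and at 1.68, 10.2 and 5.81 FPKM in pachytene polysomes, and passed the test with a limma adjusted p of 0.0432. No fold is given against a group at 0. Sertoli marker sums were 73.2 to 97.7 in elongating polysomes and 316, 1204 and 1710 in the pachytene polysome libraries in the same order. In pachytene RNPs 1 to 3 these sums were 379, 1566 and 98.3, and *Ube2l6* was listed at 0 in all 3. In round spermatids *Ube2l6* was at 6.40 and 3.18 FPKM in the 2 libraries numbered 2, at 1.05 FPKM in round polysome replicate 3 and at 0 in the other 3. The part of other cells in these values was not tested.

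In all, 3 of 34 members were higher in elongating than in pachytene polysomes, and 3.19% of all genes tested were. In the other direction 2 of 34 were lower, and 2.86% of all genes were. The median difference was −0.48 over the members and −0.24 over all genes, which became −0.23 and −0.03 after median-ratio scaling between libraries. Without overlap between libraries, 8 members were higher (16.1% of all genes) and 11 were lower (23.3% of all genes). Among the 11 were *Ube2e1* at −2.14 ± 0.66 (limma adjusted p 0.0629) and *Ube2e3* at −1.39 ± 0.57 (limma adjusted p 0.143), and among the 8 was *Ube2a* at 2.55 ± 0.77 (limma adjusted p 0.0589). Leaving out 1 library at a time gave 1 to 6 called members: 1 without pachytene polysome replicate 3 or elongating polysome replicate 1, 2 without pachytene polysome replicate 2, and 3 without elongating polysome replicate 2 or 3. *Ube2k* kept its call in all 6 of these fits, *Ube2n* and *Ube2t* in 3, and *Ube2j1* and *Ube2l6* in 1.

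**Figure D2:**
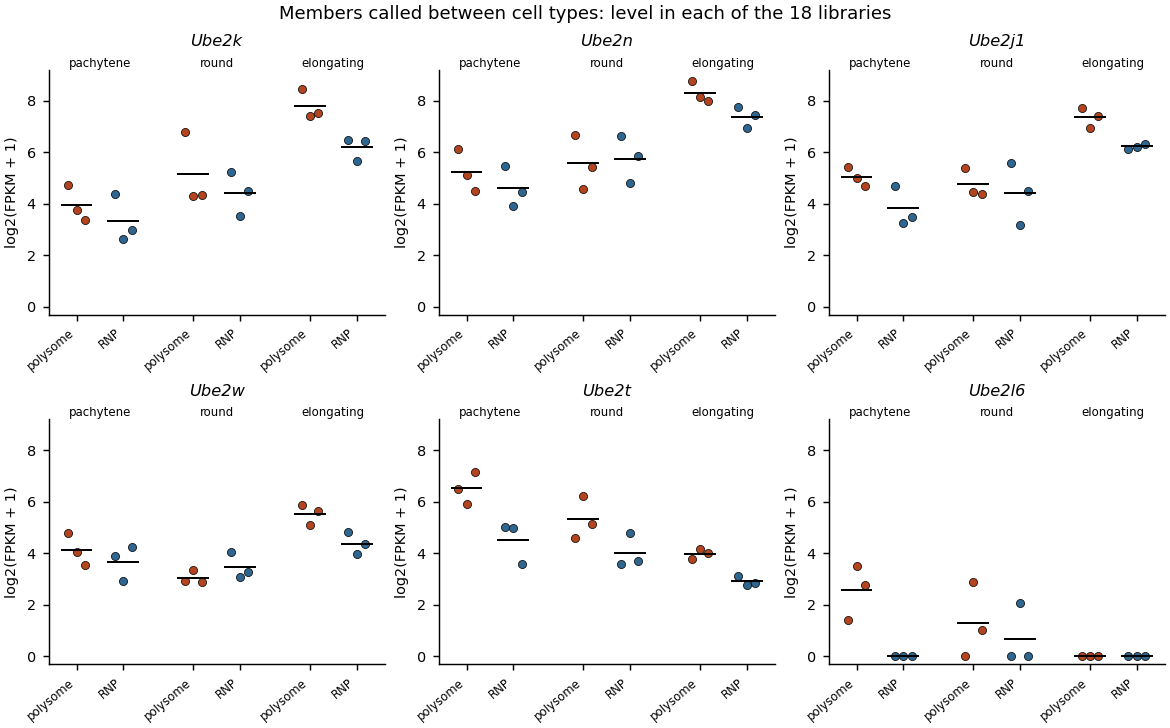
Level of the members called in at least 1 comparison of cell types, as log2(FPKM + 1) with 1 point per library and a line at the mean of each group, by cell type from pachytene to elongating and with polysome left of RNP. *Ube2k*, *Ube2n* and *Ube2j1* lie highest in elongating polysomes (123 to 430 FPKM), and *Ube2t* lies highest in pachytene polysomes (59.3 to 142 FPKM).

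In pachytene cells, the library with the highest sum of elongating spermatid markers in each fraction also had the highest levels of these 3 mRNAs. The summed elongating markers were 2128, 261 and 632 in pachytene polysomes 1 to 3 and 3499, 189 and 930 in pachytene RNPs 1 to 3, and replicate 1 had the highest *Ube2k*, *Ube2n* and *Ube2j1* of its group in both fractions. In round spermatids, replicate 1 likewise had the highest values of the 3 genes in both fractions, with marker sums of 2581 in polysomes and 5850 in RNPs. Replicates 2 and 3 followed the order of the sums for all 3 genes in the RNPs of both cell types. In pachytene polysomes their order was the reverse for all 3 genes. In round polysomes it was the reverse for *Ube2j1* and followed the sums for *Ube2k* and *Ube2n*. The part of elongating cells in the pachytene and round values was not tested.

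Against round polysomes, 2 of 34 members, *Ube2w* and *Ube2j1*, were higher in elongating polysomes, and 0.446% of all genes were. In the other direction 0 members were called, beside 0.103% of all genes. *Ube2w* (chr1:16559863-16609570, minus strand) encodes an E2 that attaches ubiquitin to the amino end of its substrates. It had 58.2, 33.2 and 48.8 FPKM in elongating polysomes, against 6.61, 9.17 and 6.48 FPKM in round polysomes, with no overlap, and its difference was 2.48 ± 0.47 (limma adjusted p 0.0287). Pachytene polysomes lay between, at 26.7, 15.4 and 10.7 FPKM. In elongating polysomes 45.9% to 67.3% of the FPKM of *Ube2w* sat on 1 transcript of 789 to 918 bases, and on the length-weighted scale, where short transcripts count less, the difference was 1.12 with a limma adjusted p of 0.207. Without both round libraries numbered 2, *Ube2w* kept its call (2.63, limma adjusted p 0.0471) and *Ube2j1* did not (2.46, limma adjusted p 0.0642).

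Near these stood *Ube2n* at 2.73 ± 0.62 (limma adjusted p 0.0569) and *Ube2k* at 2.63 ± 0.68 (limma adjusted p 0.0947). Among members that averaged at least 10 FPKM in the higher group, a limit kept below wherever the largest differences are named, the largest negative ones were those of *Ube2q1* at −2.66 ± 0.72 (limma adjusted p 0.118), *Ube2e1* at −1.71 ± 0.66 (limma adjusted p 0.242) and *Ube2g1* at −1.41 ± 0.77 (limma adjusted p 0.367). Without both round libraries numbered 2 these were −3.34, −1.25 and −0.63, *Ube2n* was at 2.24 and *Ube2k* at 2.21, and the median over the members was 0.01, beside 0.29 with them. *Ube2q1* had 24.6, 24.9 and 24.7 FPKM in elongating polysomes, against 421, 62.1 and 161 FPKM in round polysomes, where short pieces carried 80.3% and 84.0% of the 2 higher values. Without overlap, 5 members were higher (12.3% of all genes) and 6 were lower (13.1% of all genes). The count of calls was 0 without round polysome replicate 2 or 3 or elongating polysome replicate 1 or 3, 1 without elongating polysome replicate 2 and 4 without round polysome replicate 1.

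Between round and pachytene polysomes, 0 members passed the limma test, 3 had an unadjusted p under 0.05 (7.69% of all genes did), and 0.172% of all genes passed. The largest differences were those of *Ube2q1* at 1.35 ± 0.72, *Ube2k* at 1.19 ± 0.68 and *Ube2a* at 1.12 ± 0.77 on the positive side and *Ube2f* at −1.83 ± 0.80, *Ube2t* at −1.21 ± 0.52 and *Ube2w* at −1.07 ± 0.47 on the negative side. *Ube2f*, a NEDD8 carrier, had 29.5, 7.89 and 17.2 FPKM in round polysomes, against 144, 100 and 13.9 FPKM in pachytene polysomes, so that the groups overlapped. In all, 4 members were lower without overlap (7.85% of all genes), and 0 members were higher without overlap (3.71% of all genes). When both round libraries numbered 2 were left out, 0 members passed and 7 had an unadjusted p under 0.05 (14.9% of all genes), with *Ube2q1* at 2.03, *Ube2k* at 1.62, *Ube2a* at 1.59, *Ube2f* at −1.36, *Ube2t* at −1.65 and *Ube2w* at −1.21.

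In RNPs, *Ube2n* and *Ube2j1* were again the members that were higher in elongating than in pachytene cells, 2 of 34, and 0.790% of all genes were. *Ube2n* had 215, 123 and 172 FPKM in elongating RNPs, against 42.8, 14.0 and 21.2 FPKM in pachytene RNPs (2.77 ± 0.62, limma adjusted p 0.0480). *Ube2j1* had 68.9, 72.5 and 79.8 FPKM in elongating RNPs, against 25.1, 8.57 and 10.2 FPKM in pachytene RNPs (2.40 ± 0.55, limma adjusted p 0.0492). Neither gene overlapped between the 2 groups, nor did *Ube2k*, which missed the threshold at 88.6, 50.003 and 84.9 FPKM against 19.7, 5.17 and 6.94 FPKM (2.86 ± 0.68, limma adjusted p 0.0582). The calls were close to the threshold, and 0 were left without pachytene RNP replicate 2 or 3 or without any 1 elongating RNP library, whereas 3 members were called higher after median-ratio scaling, beside 2.32% of all genes.

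Downward in the same comparison, 0 members were called and 0.144% of all genes were. *Ube2t* was at −1.60 ± 0.52 (limma adjusted p 0.146), *Ube2e3* at −0.79 ± 0.57 and *Ube2q1* at −0.67 ± 0.72. The median was 0.44 over the members and 0.00 over all genes. Without overlap, 6 members were higher (11.9% of all genes) and 3 were lower (7.39% of all genes).

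**Figure D3:**
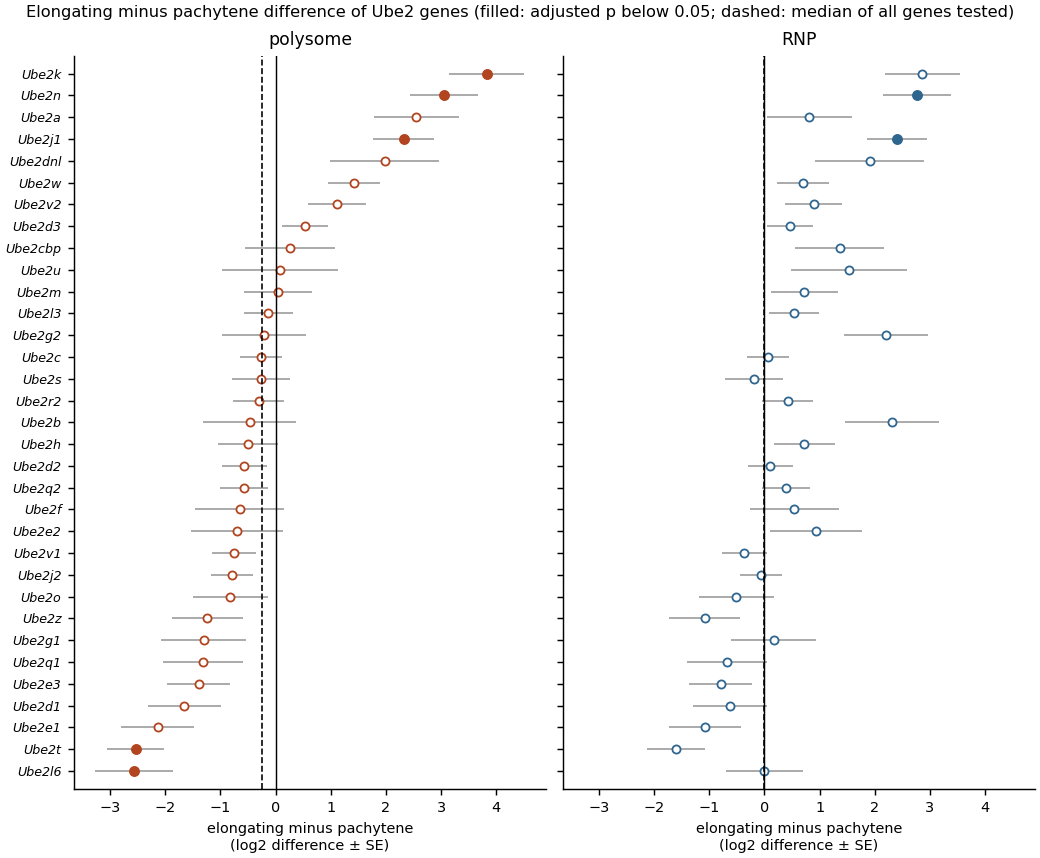
Elongating minus pachytene difference of the tested members named here in polysomes (left) and RNPs (right), on the log2(FPKM + 1) scale with its SE. Filled points passed the test at an adjusted p below 0.05, and the dashed line is the median of all genes tested, −0.24 in polysomes and 0.00 in RNPs.

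Elongating and round RNPs differed in 0 members by limma, although 6 had an unadjusted p under 0.05 (8.67% of all genes), and 0.0893% of all genes passed in either direction. Without overlap, 5 members were higher (5.14% of all genes) and 5 were lower (10.4% of all genes). The largest positive differences were those of *Ube2b* at 2.42 ± 0.85, *Ube2g2* at 1.90 ± 0.76 and *Ube2j1* at 1.81 ± 0.55, and the largest negative ones those of *Ube2q1* at −1.35 ± 0.72, *Ube2z* at −1.15 ± 0.64 and *Ube2t* at −1.11 ± 0.52. Those of *Ube2b* and *Ube2g2* rest on short pieces in elongating RNP replicate 2, where a 129-base piece held 91.9% of the FPKM of *Ube2g2*. With the 2 round libraries numbered 2 left out, 0 members passed, 4 had an unadjusted p under 0.05 (5.09% of all genes), and the median over the members was −0.15, beside 0.13 with them. *Ube2j1* was then at 1.20, *Ube2q1* at −1.79, *Ube2z* at −0.53 and *Ube2t* at −0.72.

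Round and pachytene RNPs differed in 0 members, 0 of them with an unadjusted p under 0.05 (4.48% of all genes), and in 1 gene of all tested (0.00687%). Only *Ube2c* was higher without overlap (3.11% of all genes), and 0 members were lower (1.32% of all genes). In this comparison *Ube2n* at 1.14 ± 0.62, *Ube2k* at 1.08 ± 0.68 and *Ube2u* at 0.91 ± 1.05 led the positive side, and *Ube2t* at −0.49 ± 0.52, *Ube2w* at −0.21 ± 0.47 and *Ube2b* at −0.11 ± 0.85 the negative side. Leaving out both round libraries numbered 2 gave 0 members that passed and 5 with an unadjusted p under 0.05 (1896 of 14564 genes did). These were *Ube2dnl* at 1.92, *Ube2n* at 1.62, *Ube2k* at 1.52, *Ube2j1* at 1.21 and *Ube2m* at 1.13. With the replicate number as a block, 2 members had an unadjusted p under 0.05 (6.17% of all genes).

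The RAD6 pair and the *Ube2d* genes, the broadly used E2 enzymes, are given by level. *Ube2a* (chrX:34414353-34424210, plus strand), a ubiquitin carrier of DNA damage tolerance and histone ubiquitination, had 5.09, 9.58 and 4.22 FPKM in pachytene polysomes, 54.8, 6.94 and 6.87 FPKM in round polysomes and 65.7, 79.3 and 11.7 FPKM in elongating polysomes. Its high values in round and elongating polysomes were those with short pieces. *Ube2b* (chr11:51798999-51814264, minus strand), its homologue, had 66.1, 95.8 and 51.5 FPKM in pachytene polysomes, 35.6, 62.1 and 29.0 FPKM in round polysomes and 49.2, 52.5 and 47.0 FPKM in elongating polysomes. *Ube2b* was thus above *Ube2a* in all pachytene polysome libraries, and the order was mixed in the later stages, where *Ube2a* was higher in 1 round and 2 elongating libraries. On the length-weighted scale *Ube2b* was above *Ube2a* in these libraries too, at 44.2, 42.3 and 59.0 in elongating polysomes for *Ube2b* and 12.3, 14.4 and 9.35 for *Ube2a*.

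*Ube2d3* had 111, 106 and 91.5 FPKM in pachytene polysomes, 121, 70.0 and 103 FPKM in round polysomes and 152, 139 and 158 FPKM in elongating polysomes, where it was highest without overlap but short of the test. *Ube2d2* was at 22.4 to 57.3 FPKM in polysomes and 16.2 to 42.2 FPKM in RNPs. *Ube2d1* was listed at 0 in 12 of 18 libraries, all elongating ones included, and reached 4.51 FPKM at most. In round spermatids it was above 0 only in the libraries numbered 2, at 3.03 FPKM in polysomes and 2.57 FPKM in RNPs. *Ube2dnl*, an X-linked copy related to the *Ube2d* genes, had 9.97, 14.2 and 14.2 FPKM in elongating polysomes, against 5.72, 0 and 5.13 FPKM in pachytene polysomes.

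Carriers of ubiquitin-like proteins did not share 1 pattern. *Ube2m*, a NEDD8 carrier, was at 93.3 to 141 FPKM in elongating polysomes and 89.8 to 142 FPKM in pachytene polysomes, which overlapped. *Ube2f*, the second NEDD8 carrier, varied widely within pachytene polysomes (144, 100 and 13.9 FPKM), where pieces of 186 and 327 bases held 48.8% and 77.9% of the 2 high values, and part of its assembled transcripts ran into its neighbour *Scly*. Of the anaphase-promoting complex enzymes, *Ube2s* had 514, 345 and 549 FPKM in elongating polysomes, against 699, 594 and 408 FPKM in pachytene polysomes, and *Ube2c* ran from 6.41 to 23.1 FPKM over all libraries. *Ube2u* varied most within groups, with 415, 29.2 and 148 FPKM in pachytene polysomes, and no comparison of it passed. Among the rest, *Ube2l3* ran from 13.4 to 63.9 FPKM, *Ube2q2* from 7.02 to 23.1 FPKM, *Ube2r2* from 3.06 to 13.7 FPKM and *Ube2cbp* from 0 to 16.6 FPKM.

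A second set of members was high in the round libraries numbered 2, those with the high Sertoli and spermatogonia sums. *Ube2g1* had 71.1 FPKM in round polysome replicate 2, against 14.7 and 11.9 FPKM in the other round polysome libraries, and *Ube2z* had 56.3 FPKM against 9.72 and 14.6 FPKM. *Ube2e3* had 38.6 FPKM there, against 12.3 and 21.4 FPKM. The RNP library numbered 2 was likewise the highest of its group, with 28.5 FPKM of *Ube2g1* against 2.62 and 4.61 FPKM. *Ube2o*, a large enzyme with E2 and E3 activity, had 41.6 FPKM in that RNP library, against 12.2 and 16.3 FPKM, but in round polysomes its 47.4 FPKM in replicate 2 was matched by 46.8 FPKM in replicate 3. *Ube2k*, *Ube2n* and *Ube2j1* were lowest of their group in the RNP library numbered 2. Whether RNA of other cells takes part in these values was not tested.

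Between fractions, deposited FPKM was higher in polysomes for most genes of the genome, so a member has to be read against that shift. In pachytene spermatocytes the median polysome minus RNP difference was 1.02 over all 14564 genes and 1.25 over the 34 members, all 34 of which were positive. After median-ratio scaling the medians were 0.18 and 0.32, and 23 of 34 members were positive. In deposited FPKM, 8 of 34 members were higher in polysomes and 0 were lower, beside 6.70% higher and 0.137% lower among all genes.

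Among the 8 were *Ube2g2*, *Ube2e1*, *Ube2j2*, *Ube2t*, *Ube2l6*, *Ube2h* and *Ube2d3*. *Ube2j2* had 109, 97.3 and 81.8 FPKM in pachytene polysomes, against 45.9, 25.6 and 16.8 FPKM in pachytene RNPs, without overlap (1.78 ± 0.38, limma adjusted p 0.0233). It was tight in polysomes and spread in RNPs, where replicate 3 was lowest.

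*Ube2d3* had 111, 106 and 91.5 FPKM in polysomes, against 59.3, 36.4 and 24.1 FPKM in RNPs (1.43 ± 0.42, limma adjusted p 0.0486). *Ube2t* had 89.0, 59.3 and 142 FPKM in polysomes, against 31.7, 30.3 and 10.8 FPKM in RNPs (2.0 ± 0.52, limma adjusted p 0.0382). *Ube2h* had 27.9, 17.5 and 22.8 FPKM in polysomes, against 6.37, 9.23 and 2.33 FPKM in RNPs (1.89 ± 0.54, limma adjusted p 0.0481). In none of these 3 genes did the libraries of the 2 fractions overlap, and again RNP replicate 3 was the lowest library of each.

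*Ube2g2*, an enzyme of endoplasmic reticulum-associated degradation, had 77.9, 18.6 and 157 FPKM in polysomes, against 6.15, 7.32 and 3.03 FPKM in RNPs (3.33 ± 0.76, limma adjusted p 0.0269). The 2 high polysome values came to 78.6% and 90.3% from pieces of 169 and 139 bases that share junctions with *Sumo3*. *Ube2e1* had 18.8, 31.4 and 132 FPKM in polysomes, against 7.39, 11.1 and 3.83 FPKM in RNPs (2.48 ± 0.66, limma adjusted p 0.0390), and a 122-base piece made up 72.5% of its highest value. *Ube2l6* was above 0 in the 3 polysome libraries, as given above, and listed at 0 in the 3 RNP libraries (limma adjusted p 0.0425). *Ube2u* had the second-largest difference, 3.20 ± 1.05, but did not pass (limma adjusted p 0.0695).

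These calls depended on the scale. After median-ratio scaling, quantile normalization or with only transcripts of an annotated intron chain, 0 members were called, and on the length-weighted scale 26 of 33 were, beside 34.3% of all genes. The count was 0 without pachytene polysome replicate 1 or 3 or RNP replicate 3, and 1 without polysome replicate 2. Pachytene RNP replicate 3 is the library with the lowest sum of pachytene markers, and the part of this in the calls was not tested. Without overlap between libraries 20 members were higher in polysomes, beside 30.0% of all genes, and 0 were lower, beside 0.542%. After scaling 5 were higher without overlap (6.67% of all genes), *Ube2g1*, *Ube2g2*, *Ube2j2* and *Ube2l6* among them.

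**Figure D4:**
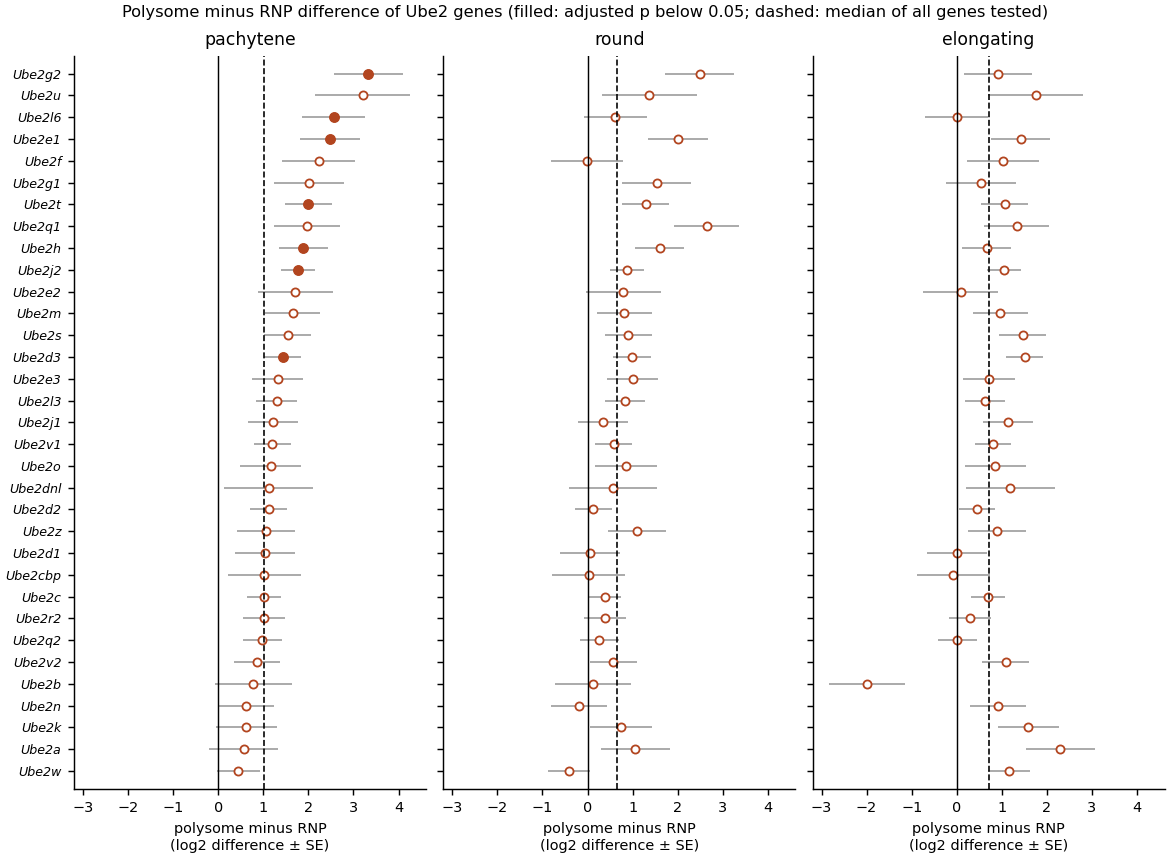
Polysome minus RNP difference of the tested members named here in the 3 cell types (from left to right pachytene, round and elongating), on the log2(FPKM + 1) scale with its SE, with filled points for an adjusted p below 0.05 and a dashed line at the median of all genes tested (1.02, 0.65 and 0.72). The members spread around the dashed line in each panel, and filled points appear in the pachytene panel alone.

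In round spermatids 31 of 34 members were positive with a median of 0.81, against 0.65 over all genes. After median-ratio scaling 21 were positive and 13 negative, with medians of 0.11 over the members and 0.07 over all genes. By limma 0 members passed, 8 had an unadjusted p under 0.05 (15.2% of all genes), and 0.227% of all genes were called higher and 0.0412% lower in polysomes. *Ube2q1* at 2.64 ± 0.72 (limma adjusted p 0.144), *Ube2g2* at 2.49 ± 0.76 and *Ube2e1* at 2.01 ± 0.66 had the largest differences, whereas *Ube2w* at −0.41 ± 0.47, *Ube2n* at −0.18 ± 0.62 and *Ube2f* at −0.01 ± 0.80 were the 3 below 0. *Ube2n* had 100, 23.1 and 42.4 FPKM in round polysomes, against 96.8, 26.6 and 56.5 FPKM in round RNPs, and after median-ratio scaling 77.1, 15.8 and 34.05 in round polysomes, against 113, 32.8 and 82.5 in round RNPs, lower in polysomes in each numbered pair. Without overlap 6 members were higher in polysomes (14.6% of all genes), *Ube2d3*, *Ube2e1*, *Ube2g2*, *Ube2h* and *Ube2j2* among them, and 0 were lower (0.700% of all genes). Scaling left 2 higher, *Ube2g2* and *Ube2h* (4.15% of all genes), and 1 lower, *Ube2w* (4.36% of all genes). Without both round libraries numbered 2, in deposited FPKM, 29 members were positive and 4 negative, the medians were 0.73 over the members and 0.63 over all genes, and *Ube2q1* was at 2.89, *Ube2g2* at 3.25 and *Ube2e1* at 2.04.

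Elongating spermatids gave a median of 0.91 over the members and 0.72 over all genes, with 30 members positive, 2 negative and 2 at 0 in both fractions. After median-ratio scaling the medians were 0.05 and 0.02, with 20 members positive and 12 negative. By limma 0 members passed, 9 had an unadjusted p under 0.05 (20.7% of all genes), and 1.53% of all genes were called higher and 0.185% lower in polysomes. The largest differences were those of *Ube2a* at 2.30 ± 0.77 (limma adjusted p 0.116), *Ube2u* at 1.75 ± 1.05 and *Ube2k* at 1.59 ± 0.68. *Ube2k* had 346, 167 and 181 FPKM in elongating polysomes, against 88.6, 50.003 and 84.9 FPKM in elongating RNPs. *Ube2n* had 430, 282 and 253 FPKM in elongating polysomes, against 215, 123 and 172 FPKM in elongating RNPs, and *Ube2j1* 209, 123 and 169 FPKM against 68.9, 72.5 and 79.8 FPKM. None of these 3 genes overlapped between the fractions, and 20 members in all were higher in polysomes without overlap (37.7% of all genes), of which 6 remained after scaling (14.4% of all genes), *Ube2k* but neither *Ube2n* nor *Ube2j1* among them.

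In deposited FPKM *Ube2b* alone was lower in polysomes without overlap (1.70% of all genes were), and after scaling *Ube2b*, *Ube2q2* and *Ube2r2* were (9.80% of all genes). It had 49.2, 52.5 and 47.0 FPKM in elongating polysomes, against 94.5, 972 and 87.4 FPKM in elongating RNPs (−2.0 ± 0.85, limma adjusted p 0.194). Pieces of 281, 105 and 211 bases carried 73.0%, 93.0% and 43.2% of the 3 RNP values. On the length-weighted scale the direction of the means turned and the groups overlapped, with 44.2, 42.3 and 59.0 in elongating polysomes, against 31.2, 71.6 and 31.8 in elongating RNPs. When both round libraries numbered 2 were left out, 2 members, *Ube2d3* among them, were called higher in elongating polysomes, beside 5.23% of all genes.

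Change of the polysome minus RNP difference from one cell type to another was tested in the same fit. By limma 0 members passed in each of the 3 tests. For round minus pachytene 0 members had an unadjusted p under 0.05 (2.89% of all genes did) and 0.0206% of all genes passed. For elongating minus round it was 1 member (2.55%) and 0.00687% passed, and for elongating minus pachytene 3 members (3.87%) and 0.0343% passed. That 8 members passed in pachytene spermatocytes and 0 in the other cell types is therefore not shown to be a difference between cell types.

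The study concerns 3′ UTR length, and the assembled transcripts show how far past the annotated stop codon each one ran, a distance weighted by FPKM within a gene and library. With 3 libraries against 3, the smallest p an exact permutation test allows is 0.1, so the ends are described without a test. In polysomes, 13 of the 27 members with an end in all 6 libraries were shorter in elongating than in pachytene cells without overlap, and 0 were longer. Over 7372 genes, 22.9% were shorter and 3.81% longer.

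*Ube2k* ended a median of 801 bases after the stop codon in elongating polysomes (607 to 851 bases), against 3572 bases (1687 to 3586) in pachytene polysomes. *Ube2n* ended at 998 bases (747 to 1039) in elongating polysomes, against 3343 bases (1417 to 3530) in pachytene polysomes. The longest annotated 3′ UTRs of the 2 genes are 4039 and 3346 bases. Between these 2 groups, both genes had higher levels and nearer ends in elongating polysomes. Their nearest ends were in RNPs: medians were 237 bases in pachytene and 261 bases in round RNPs for *Ube2k*, and 812 bases in round and 664 bases in elongating RNPs for *Ube2n*. Levels in these RNP groups were lower than in elongating polysomes. *Ube2n* in elongating RNPs (215, 123 and 172 FPKM) was nevertheless above pachytene polysomes (68.0, 33.7 and 21.3 FPKM), where its end was farther.

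*Ube2a* ended at 305 bases (129 to 784) in elongating polysomes, against 1082 bases (889 to 1143) in pachytene polysomes, and *Ube2d3* at 1652 bases (1587 to 1728) against 3011 bases (2918 to 3091). *Ube2w* ended at 488 bases (460 to 523), against 1636 bases (1078 to 2510). *Ube2j1*, by contrast, stayed near 2380 bases in both, at 2375 to 2433 bases in elongating and 2374 to 2380 bases in pachytene polysomes, although its level rose as well. *Ube2e3*, *Ube2f*, *Ube2r2*, *Ube2s*, *Ube2t*, *Ube2v2*, *Ube2z* and *Ube2d2* made up the remainder of the 13. The pachytene polysome median ran past the longest annotated 3′ UTR for *Ube2d3* (1938 bases), *Ube2w* (1487 bases) and *Ube2a* (1075 bases). It also did for *Ube2d2*, *Ube2e3*, *Ube2s*, *Ube2t* and *Ube2z*, but not for *Ube2k*, *Ube2n*, *Ube2f*, *Ube2r2* and *Ube2v2*. *Ube2s*, annotated to 141 bases, ended at 140 bases in elongating and 242 bases in pachytene polysomes.

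**Figure D5:**
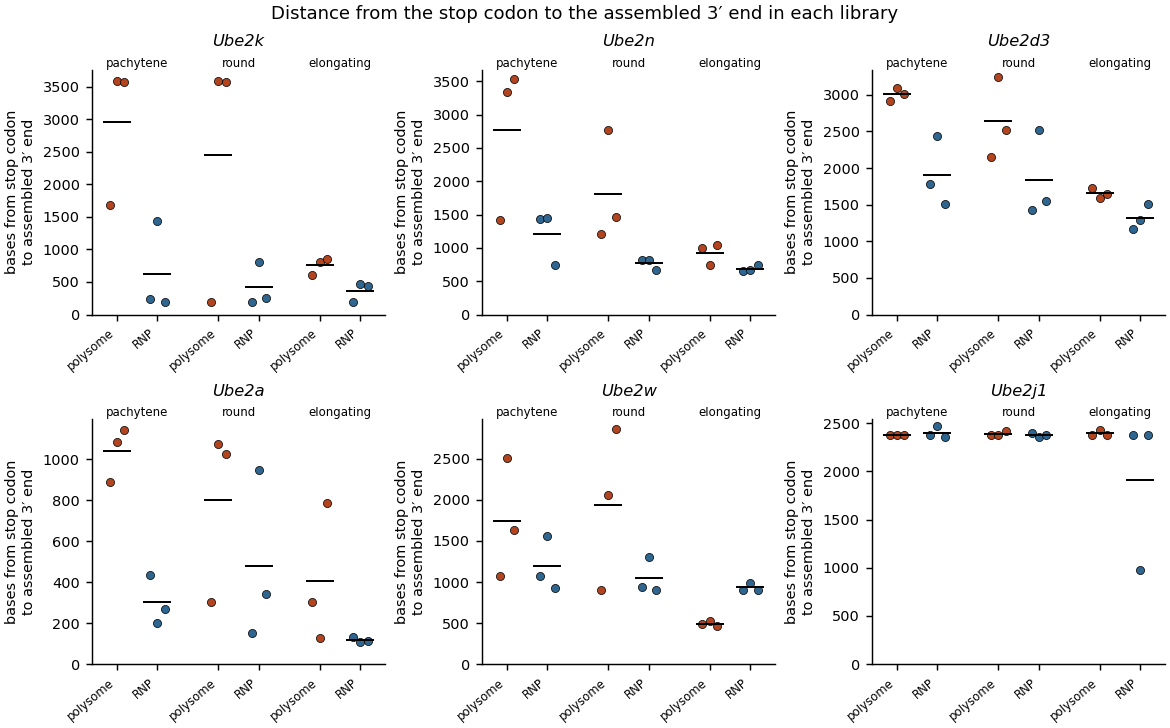
Distance in bases between the annotated stop codon and the end of the assembled transcripts of 6 members, weighted by FPKM, with 1 point per library and a line at the mean of each group, by cell type and fraction. In polysomes *Ube2k* and *Ube2n* end within 851 and 1039 bases in elongating spermatids and reach 3586 and 3530 bases in pachytene spermatocytes.

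Between other cell types fewer members were without overlap. Against round polysomes, 5 of 27 members were shorter in elongating polysomes (13.1% of genes), *Ube2d3*, *Ube2n*, *Ube2r2*, *Ube2w* and *Ube2z*. In RNPs, 3 of 27 were shorter in elongating than in pachytene cells (6.43% of genes), *Ube2a*, *Ube2d3* and *Ube2m*, with *Ube2a* at 111 bases (109 to 130) in elongating RNPs, against 268 bases (201 to 437) in pachytene RNPs, and 0 were longer (5.91% of genes). *Ube2a* and *Ube2l3* were shorter in elongating than in round RNPs, 2 of 28 (9.29% of genes), and 0 were longer (2.23%). *Ube2m* alone, 1 of 26, was shorter in round than in pachytene polysomes (5.67% of genes) and 0 were longer (3.69%), and in RNPs 0 of 27 were shorter (2.01%) or longer (4.70%) in round than in pachytene cells. Between fractions, 14 of 26 members ended farther from the stop codon in pachytene polysomes than in pachytene RNPs (23.8% of genes) and 0 ended nearer (0.163%), and the count of farther ends was 2 of 26 in round spermatids (15.9% of genes) and 9 of 29 in elongating spermatids (17.0% of genes). *Ube2r2* and *Ube2w* were shorter in elongating polysomes than in elongating RNPs, where 0.769% of genes were. The medians were 789 and 793 bases for *Ube2r2*, a small difference, and 488 and 908 bases for *Ube2w*. By the end of the transcript with the highest FPKM, *Ube2w* alone was shorter. For *Ube2k* the pachytene RNP median was 237 bases (187 to 1435) beside 3572 bases in pachytene polysomes. The ratio of coverage to FPKM was 1.83 to 1.95 in elongating polysomes, 1.53 to 2.20 in pachytene polysomes and 1.20 to 1.59 in pachytene RNPs, and the part of depth in these distances was not tested.

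A poly(A) signal, AATAAA or ATTAAA on the transcript strand, was looked for from 40 bases before to 20 bases after each assembled end. It was found at 48.9% of the member ends in elongating polysomes, against 40.4% in pachytene polysomes, and at 63.6% in elongating RNPs, against 46.2% in pachytene RNPs. Over all genes the shares were 45.7% and 47.7% in polysomes and 47.9% and 52.1% in RNPs in the same order. In a window of the same 60 bases shifted 120 bases upstream, 7.95% to 10.99% of member ends held a match. At the nearer ends in elongating polysomes, the signal was found at 0 of 3 ends of *Ube2n*, *Ube2d3* and *Ube2w*. In pachytene polysomes it was found at 1, 0 and 0 of 3 ends of these genes. For *Ube2k* and *Ube2a* it was found at 1 of 3 ends in elongating polysomes, against 0 and 1 of 3 in pachytene polysomes. *Ube2s* and *Ube2r2* had it at 3 of 3 ends in elongating polysomes, against 0 of 3 in pachytene polysomes. The ends of 1 gene in several libraries are not independent, and these shares and counts are descriptions.

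The rest of the conjugation pathway was read from lists of other genes in the same fit. Of 8 tested E1 genes, *Sae1*, which activates SUMO, was higher in pachytene polysomes than RNPs (2.03, limma adjusted p 0.0423), and *Nae1*, which activates NEDD8, was lower in elongating than pachytene polysomes (−2.95, limma adjusted p 0.0409). Of 8 tested E2 family genes without the *Ube2* symbol, *Cdc34* was higher in elongating than pachytene polysomes (3.10, limma adjusted p 0.0142) and *Atg3*, of autophagy, was higher in pachytene polysomes than RNPs (2.22, limma adjusted p 0.0399). The list medians for elongating minus pachytene polysomes were −1.22 for the E1 genes, −0.58 for these E2 genes, −0.95 for ubiquitin and ubiquitin-like genes and −0.10 for the E3 ligases below, beside −0.24 over all genes.

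Of 8 tested genes for ubiquitin and ubiquitin-like proteins, *Sumo2* was lower in elongating than pachytene polysomes (−1.69, limma adjusted p 0.0408). *Nedd8*, *Sumo2* and *Sumo3* were higher in pachytene polysomes than RNPs, by 1.82, 1.73 and 2.73 (limma adjusted p 0.0194, 0.0393 and 0.0190). The short pieces of *Ube2g2* that share junctions with *Sumo3* entered the sums of both genes. The call of *Sumo3* is therefore not separate from that of *Ube2g2*. Of 29 tested E3 ligases known to work with these E2 enzymes, *Cdc20* and *Stub1* were higher in pachytene polysomes than RNPs (1.69 and 1.58, limma adjusted p 0.0420 and 0.0395), *Arih2* was higher in elongating polysomes than RNPs (3.04, limma adjusted p 0.0388), and 0 were called between cell types. After median-ratio scaling, the calls between fractions in these lists were absent, and *Nae1* and *Sumo2* missed the threshold between cell types (limma adjusted p 0.0503 and 0.0514). Between elongating and pachytene RNPs, scaling added 3 calls: *Cdc34* was higher (2.47, limma adjusted p 0.0443), and *Nae1* and *Sumo2* were lower (−2.78 and −1.61, limma adjusted p 0.0492 and 0.0356).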

How the data were processed

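Large RNA of 18 fractions was sequenced from stranded total RNA libraries. For large and small RNA together, the study's methods name single-end reads made at UT Southwestern and paired-end reads made at BGI. The site and read mode of each single library are unknown here. Their part in the levels, the short pieces, the assembled ends and the libraries that stood apart was therefore not tested. Per the labels and the study's methods, the authors ran the FASTX-Toolkit for trimming, TopHat (TopHat2 in the methods) for alignment to mm9 and Cufflinks for a separate assembly of each library. Exact versions are not given in the sources used here. The deposited transcript lists hold FPKM values, not normalized between libraries, and no counts, so they do not give the depth per library. The scaling by control mRNAs that the methods describe is not in these values, and the lists hold no columns of the authors' comparisons.

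The FPKM of a gene was summed over transcripts that share a splice junction with it on the same strand (genes with 1 exon took single-exon transcripts), and a gene without an assembled transcript was set to 0, which can be a failed assembly. The test took genes that reached an FPKM of 1 in 3 or more libraries, on log2(FPKM + 1) with limma 3.58.1 (trend, not robust, R 4.3.3) in 1 model of 6 groups over 18 libraries, two-sided, with Benjamini-Hochberg adjustment over all 14564 genes and calls under 0.05. Python 3.11.15 with numpy 2.4.6, pandas 2.3.3, scipy 1.17.1 and matplotlib 3.10.9 did the rest. Calling was tested on simulated data.

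All members enter the counts, and the values of 1 member and of 1 gene of the pathway lists are not reported here. Named with values were members called in any comparison, up to 3 in each direction with the largest log2 difference where the higher group averaged 10 FPKM or more, the 8 of highest mean FPKM, those listed at 0 throughout, the RAD6 pair, the *Ube2d* genes and the carriers of ubiquitin-like proteins. The members, gene lists and marker lists were chosen with earlier results of these data known.

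Samples with the same replicate number were taken as paired where all 3 correlations of their deviations were over 0.1. This held for round polysomes and RNPs (0.571, 0.690 and 0.209) and for round and pachytene RNPs (0.450, 0.627 and 0.120). Replicate 3 of round polysomes, however, correlated most with replicate 1 of round RNPs. Likewise, replicate 3 of round RNPs correlated most with replicate 1 of pachytene RNPs. The pairing is therefore uncertain, and the main fit used no replicate block. Alternatives were other filters and pseudocounts, median-ratio scaling, quantile normalization, a replicate block, only the libraries compared, only annotated intron chains, other gene assignment, and libraries left out. Length-weighted FPKM (each transcript's FPKM times its length over that of the longest annotated transcript) and the ends without single libraries were added after the data were seen. Small RNAs and whole-cell RNA are not analysed here.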

Additional observations from a re-analysis of the deposited data

How the results depend on the processing

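The direction of all 17 calls of single members was the same in all 322 alternative values, and the call was kept in 176 of them. The count of called members was less stable. For polysome minus RNP in pachytene spermatocytes (8 members), it was 0 with median-ratio scaling, quantile normalization, only the libraries compared, only annotated intron chains, or length-weighted FPKM with scaling, 15 without both round libraries numbered 2, 26 with length-weighted FPKM, and 0 to 9 with 1 library left out. Over all genes, 18.2% were called higher without both round libraries numbered 2 and 34.3% with length-weighted FPKM. In elongating spermatids (0 members) it was 1 with a pseudocount of 0.1, 9 with only the libraries compared, 2 without both round libraries numbered 2 and 5 with length-weighted FPKM. Of all genes, 2.24%, 15.9%, 5.23% and 4.84% were called higher in these settings, in the same order.

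For elongating minus pachytene RNPs (2 members) the count was 1 without a filter, 0 with a minimum FPKM of 5, 0 with quantile normalization, only the libraries compared or annotated chains, 1 with each transcript given to the gene with most shared junctions, 4 without both round libraries numbered 2, 5 with length-weighted FPKM and scaling, and 0 to 3 with 1 library left out. For elongating minus round RNPs (0 members) it was 1 with length-weighted FPKM and scaling. For elongating minus round polysomes (2 members) it was 0 with a minimum FPKM of 5, quantile normalization, only the libraries compared or annotated chains, 1 without both round libraries numbered 2, 1 with length-weighted FPKM, 4 with that and scaling, and 0 to 4 with 1 library left out. For elongating minus pachytene polysomes (5 members) it was 3 with quantile normalization, 9 without both round libraries numbered 2, and 1 to 6 with 1 library left out. Without both round libraries numbered 2, 7.63% of all genes were called higher and 8.80% lower in this comparison. The shares were then 5.14% higher and 1.49% lower for elongating minus pachytene RNPs, and 0.199% and 0.0755% for elongating minus round polysomes. The mean share of *Ube2s* in the summed *Ube2* FPKM was 22.5%, 35.2% with only annotated chains and 37.0% with length-weighted FPKM. The count of 13 members with nearer ends was 13 to 15 with 1 library left out.

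With the replicate number as a block, the counts were 14 for the pachytene fractions (0 with scaling), 2 for the elongating fractions, 4 for elongating minus pachytene RNPs (5 with scaling), 3 with scaling for elongating minus round RNPs, 5 for elongating minus round polysomes (4 with scaling) and 10 for elongating minus pachytene polysomes. Over all genes, the block called 13.2% higher in the pachytene fractions, 3.05% in the elongating fractions and 4.91% for elongating minus pachytene RNPs (6.61% with scaling). It called 1.24% higher with scaling for elongating minus round RNPs and 4.11% for elongating minus round polysomes (2.99% with scaling). For elongating minus pachytene polysomes, 7.08% were called higher and 6.63% lower. These groups share only a number. In the 2 comparisons taken as paired, the block changed no call of a member. Where other settings gave another count, the cause was not tested. Low FPKM and short assembled pieces limit what could be seen, and the depth of the libraries was not used.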
